A study of Mus musculus with 9 samples.

Results

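Immediate early genes are described here across 3 regions of the mouse forebrain: Fos, Junb, Egr1, Egr2, Egr3, Egr4, Arc, Nr4a1, Homer1 and Ier5. The 10 genes were taken by symbol from the annotation of the Affymetrix Mouse430_2 array, which assigned 19 of the 45037 probe sets to them, and all 10 were among the 14208 genes tested. BNST, the bed nucleus of the stria terminalis, belongs to the extended amygdala. NAc, the nucleus accumbens, is the ventral part of the striatum, and dStr is its dorsal part. The labels name 3 biological replicates for each region, and each was read on 1 array. All mice were treated alike: isoflurane anaesthesia, decapitation, and vibratome slices of 300 µm cut in cold sucrose solution, from which semi-frozen tissue was punched. Strain, age and sex were not given in the sources used here, nor whether arrays of different regions came from the same animals, and the p-values below measure only the spread between these samples.

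Immediate early genes are transcribed within minutes of a stimulus without new protein synthesis, chiefly through serum response factor and CREB bound at their promoters. Most encode transcription factors, among them the AP-1 subunits Fos and JunB and the zinc finger proteins of the EGR family, while Arc and the short form of Homer1 act directly at the synapse. In striatal neurons they respond to dopamine and glutamate, and they are widely read as markers of recent neuronal activity.

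Most of these genes were lower in BNST than in dStr, some were also lower in NAc than in dStr, and the Fos values of all 3 regions overlapped. Between BNST and dStr 8 of the 10 genes were lower in BNST and 0 higher (limma, adjusted p under 0.05), where 9.33% of all genes tested were lower and 4.94% higher. Egr3 and Homer1 had the largest differences, and Arc and Fos did not pass. Between NAc and dStr 4 of the 10, Egr2, Egr3, Egr4 and Ier5, were lower in NAc and 0 higher, where 1.10% of all genes were lower and 0.950% higher. Between BNST and NAc only Homer1 passed, lower in BNST, where 1.48% of all genes were lower and 0.760% higher. An unadjusted p under 0.05 was reached by 9, 9 and 2 of the 10 genes in these comparisons. No share of all genes was taken beside these counts or the unadjusted counts of gene lists below. All arrays of the first region lay below all arrays of the second for 7 of the 10 genes in BNST against dStr (21.5% of all genes), 8 in NAc against dStr (10.0%) and 2 in BNST against NAc (8.85%). The mean log2 values stood in the order BNST, NAc, dStr, from low to high, for 7 genes (34.4% of all genes). The median log2 difference of the 10 was -1.70 for BNST minus dStr, -1.24 for NAc minus dStr and -0.11 for BNST minus NAc, against medians over all genes of -0.056, -0.015 and -0.049. The moderated F test over the 3 regions passed for 7 genes (10.3% of all genes; 3 of the 10 without dStr 1 and 4 without dStr 2), the others being Fos, Junb and Arc. The comparisons share arrays and are not independent of one another.

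**Figure D1:**
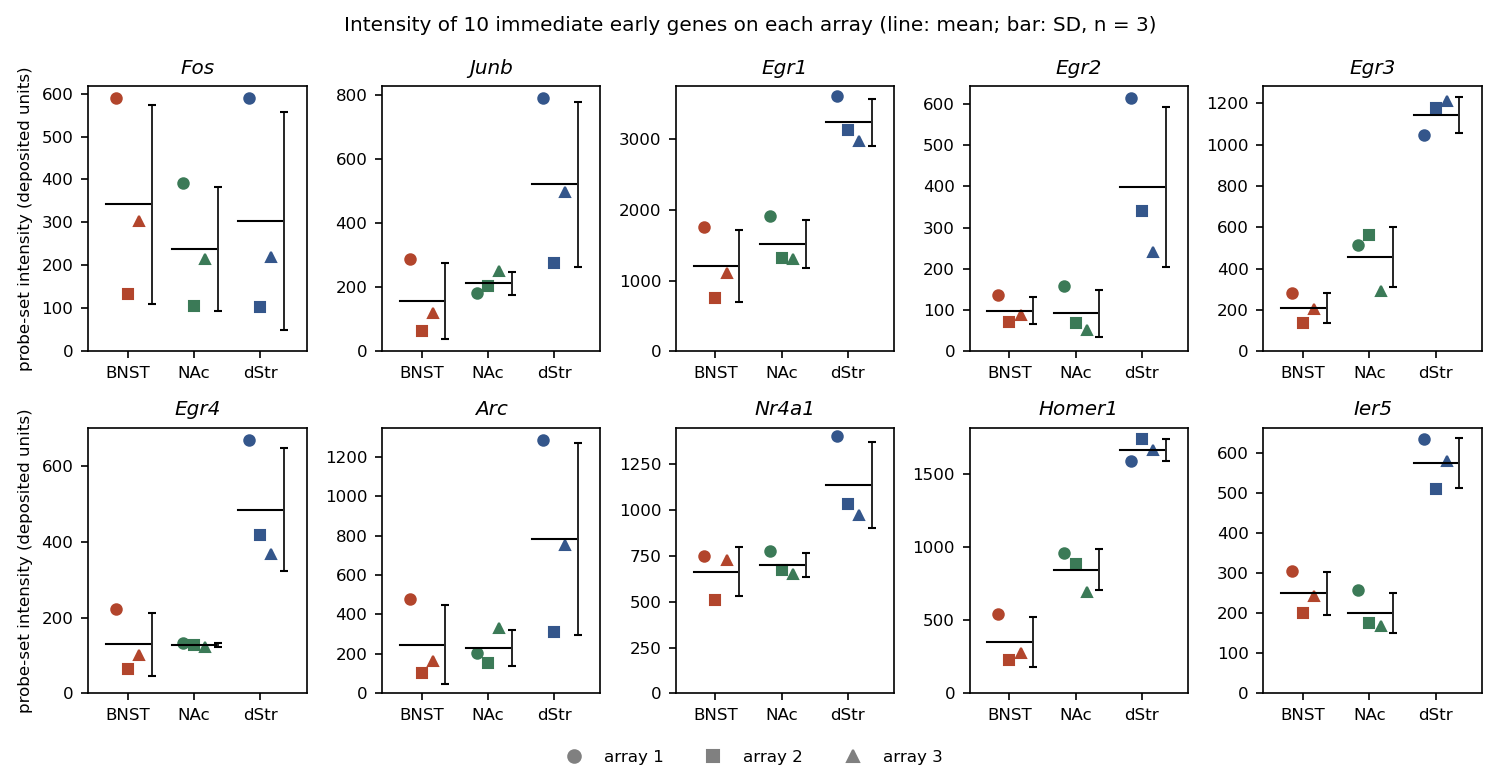
Probe-set intensity, on a linear axis from 0, of the 10 immediate early genes on each array of BNST, NAc and dStr; symbols mark the replicate number, lines the mean and bars the SD of 3 arrays. The dStr arrays lie above all BNST and NAc arrays for 7 genes, whereas the Fos values of all 3 regions overlap. The share of all genes with dStr above both regions was not taken.

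Several of these calls changed when 1 array was left out. Leaving out an array of a region outside the comparison does not change the difference, only the pooled spread and the adjusted p. Homer1, for example, stayed at -1.32 for BNST minus NAc without dStr 1, dStr 2 or dStr 3, although its call ended. The count of 8 between BNST and dStr was 5 without BNST 2 and 5 without dStr 1. The count of 4 between NAc and dStr was 1 without BNST 3, NAc 3, dStr 1 or dStr 2, and 2 without NAc 2 or dStr 3. The single call between BNST and NAc became 2 without BNST 1 or NAc 3 and 0 without any 1 of the other arrays. Across genes BNST 1 and NAc 3 correlated more closely with each other (r = 0.965) than with their own regions (0.934 and 0.948 for BNST 1, 0.909 and 0.964 for NAc 3). NAc 1 reached 0.909 and 0.938 with the other NAc arrays. With BNST 1 and NAc 1 left out and NAc 3 kept, a choice made after the data were seen, 9 of the 10 genes were lower in BNST than in dStr (20.6% of all genes), 6 lower in NAc than in dStr (2.40% of all genes) and 2 lower in BNST than in NAc (13.0% of all genes).

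Array medians lay between 93.9 and 102 intensity units, and each array had 2270 to 2698 probe sets at a common floor of 15. The dissections differed in their cell markers. All 13 measured genes of striatal projection neurons, the principal neurons of the striatum, were lower in BNST than in dStr, 9 were lower in BNST than in NAc (3 without BNST 3, 4 without NAc 2) and 3 lower in NAc than in dStr (5 without BNST 1, 1 without dStr 1 or dStr 3). Their summed intensity was 4667 to 11009 on the BNST arrays, 19228 to 27548 in NAc and 35113 to 38788 in dStr, so it moved in the same direction as most of the immediate early genes. Microglia genes were lower in BNST than in dStr for 6 of 9 (1 or 2 without BNST 2, BNST 3 or any 1 of the dStr arrays, 3 after quantile normalisation or centring on the array median), with sums of 3012 to 3849.5 in BNST, 3802 to 4659 in NAc and 5214 to 5382 in dStr. Between BNST and dStr endothelial and mural cell genes were lower for 1 of 9 (2 or 3 without BNST 1, NAc 1 or dStr 2) and cortical excitatory neuron genes for 2 of 8. Of 9 oligodendrocyte genes limma called 0 between BNST and dStr, 0 with an unadjusted p under 0.05. In the same comparison 4 of 10 astrocyte genes were higher in BNST. So were 2 of 9 genes of the interneuron list, Calb2 and Gad2 (1 without any 1 of the BNST or dStr arrays). Sst, Npy, Pvalb, Chat, Nos1 and Th of that list were not called, and no share of interneurons is inferred. Of 7 ependyma and choroid plexus genes 4, Tmem212, Ccdc153, Enkur and Otx2, were high on the BNST arrays, for example at 372, 209 and 249.7 for Otx2. They were at or near the floor in NAc and dStr. These 4, like Gfap among the astrocyte genes, passed the filter on low values only through the BNST arrays, so that they had to differ. Ttr, Clic6 and Folr1 of that list were not called in any comparison. No marker of the other 7 lists was at the floor on any array. In such punches fewer cells of a type and less RNA per cell cannot be told apart, and the part of these markers in the results was not tested.

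The promoters of 4 of the genes are shown for their short matches to known binding elements, whose function was not tested. Egr2, Egr4 and Homer1 were taken as genes that passed the test between regions, and Fos as 1 that did not. The windows run from 250 bases before to 50 after a RefSeq transcript start on GRCm38.p6, 5′ to 3′ on the strand of the gene. Capitals mark TGACG, the core of the cyclic AMP response element, on either strand, and the CArG box, the binding element of serum response factor.
Fos, chr12:85473640-85473939, plus strand: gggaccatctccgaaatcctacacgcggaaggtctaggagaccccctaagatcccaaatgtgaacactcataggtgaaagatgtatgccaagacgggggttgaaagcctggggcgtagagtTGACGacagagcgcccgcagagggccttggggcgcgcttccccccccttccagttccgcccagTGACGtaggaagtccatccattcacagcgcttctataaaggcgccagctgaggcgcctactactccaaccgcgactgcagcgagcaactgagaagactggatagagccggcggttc
Egr2, start 3 of 5, chr10:67537619-67537918, plus strand: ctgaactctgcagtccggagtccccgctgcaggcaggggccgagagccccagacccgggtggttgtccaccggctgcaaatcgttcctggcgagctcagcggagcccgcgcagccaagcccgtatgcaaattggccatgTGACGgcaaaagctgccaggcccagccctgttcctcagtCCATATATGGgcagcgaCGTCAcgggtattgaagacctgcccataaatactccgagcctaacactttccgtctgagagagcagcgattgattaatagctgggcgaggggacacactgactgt
Egr4, chr6:85513540-85513839, minus strand: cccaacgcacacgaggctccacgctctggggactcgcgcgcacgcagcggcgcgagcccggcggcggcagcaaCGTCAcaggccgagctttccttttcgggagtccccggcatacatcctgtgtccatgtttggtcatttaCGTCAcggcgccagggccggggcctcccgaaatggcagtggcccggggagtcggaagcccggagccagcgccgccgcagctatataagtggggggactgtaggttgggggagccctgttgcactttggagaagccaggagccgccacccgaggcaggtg
Homer1, start 1 of 2, chr13:93303507-93303806, plus strand: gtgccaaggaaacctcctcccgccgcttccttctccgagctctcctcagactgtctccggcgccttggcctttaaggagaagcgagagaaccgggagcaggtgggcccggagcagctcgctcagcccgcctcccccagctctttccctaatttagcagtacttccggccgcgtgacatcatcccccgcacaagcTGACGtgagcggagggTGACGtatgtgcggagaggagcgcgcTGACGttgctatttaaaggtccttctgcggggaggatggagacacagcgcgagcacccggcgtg
RefSeq windows were held for 7 of the 10 genes, 12 windows in all, some of them overlapping; Egr1, Egr3 and Arc had none in the table used. The core TGACG was present in windows of 6 of these 7 genes (8 of 12 windows), against 20.8% of the 32851 windows of all genes, Ier5 being the exception. Fos carried it at -129 and -66 from the start, Egr4 at -177 and -109, and the upstream start of Homer1 at -56, -40 and -14. Nr4a1 carried 4 and Junb 1. An exact CArG box, CC and GG around 6 bases of A or T, was present only in Egr2. It stood in 4 of the 5 Egr2 windows, against 1.63% of all windows. In the window shown it lay at -72 between cores at -111 and -55. Egr2 windows 3, 4 and 5 overlap and hold this same box and these same cores, so the window counts repeat these sites. Near matches, and elements outside the windows, were not searched for. The other genes are thus not shown to lack binding sites of serum response factor. The full palindrome TGACGTCA, which holds the core on both strands, was in 0 of the 12 windows and in 1.79% of all windows. A TATAAA was found in Fos, at -33, and in Junb, against 13.6% of all windows. The second Homer1 window, at its downstream start, held none of these motifs. The matches describe these windows and, apart from the choice of the genes shown, were not related to the expression values.

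The EGR genes, zinc finger transcription factors that bind GC-rich elements, all passed between BNST and dStr. Egr3 read 281, 137 and 207 on BNST arrays 1 to 3, 516, 561 and 290.3 on the NAc arrays and 1047, 1175 and 1209 on the dStr arrays. No array of 1 region overlapped another region, and the levels stood in the order BNST, NAc, dStr. Its log2 difference was -2.42 for BNST minus dStr (SE 0.27, adjusted p = 0.000335, 5.35-fold) and -1.35 for NAc minus dStr (SE 0.27, adjusted p = 0.033, 2.55-fold). BNST minus NAc was -1.07 (adjusted p = 0.0814), which did not pass, although it did without BNST 1 (adjusted p = 0.0261), without NAc 3 (0.0176) and without BNST 1 and NAc 1 together (-1.19, adjusted p = 0.0165). The call between BNST and dStr held with each array left out (highest adjusted p = 0.00299), whereas that between NAc and dStr ended without BNST 3 (adjusted p = 0.0668), NAc 3 (0.0778), dStr 1 (0.113), dStr 2 (0.12) or dStr 3 (0.15).

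Egr1, the most widely used activity marker of the family, read 1763, 753 and 1112 in BNST, 1908, 1326 and 1309.9 in NAc and 3603, 3129 and 2974 in dStr. The dStr arrays lay above all the others, and the BNST and NAc arrays overlapped. The difference was -1.49 for BNST minus dStr (SE 0.27, adjusted p = 0.00502), with a highest adjusted p of 0.0278 when 1 array was left out. For NAc minus dStr it was -1.10 (95% interval -1.71 to -0.50, adjusted p = 0.077) and did not pass, but passed without BNST 1 (adjusted p = 0.0165), BNST 2 (0.0322) or NAc 1 (0.037), and without BNST 1 and NAc 1 together (-1.28, adjusted p = 0.00186). Egr4 read 224, 65.7 and 101 in BNST, 132, 127 and 122 in NAc and 669.6, 418 and 369 in dStr. The 3 NAc arrays were nearly equal and sat inside the BNST range, with dStr above both. Egr4 was 3.68-fold lower in BNST than in dStr (adjusted p = 0.00505) and 3.40-fold lower in NAc than in dStr (adjusted p = 0.0268). That call against NAc ended without BNST 3 (adjusted p = 0.0539), NAc 2 (0.0841), NAc 3 (0.0817), dStr 1 (0.137), dStr 2 (0.0849) or dStr 3 (0.0689).

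Egr2, the family member also known from myelinating Schwann cells, read 136, 72.4 and 88.5 in BNST, 158, 68.3 and 52.5 in NAc and 614, 339 and 241 in dStr. The BNST arrays lay inside the NAc range, and the lowest dStr array exceeded the highest of both. The difference was -1.79 for BNST minus dStr (SE 0.39, adjusted p = 0.0122) and -1.95 for NAc minus dStr (SE 0.39, adjusted p = 0.0315). The call against BNST ended without BNST 2 (adjusted p = 0.0548), BNST 3 (0.0529) or dStr 1 (0.0534), and that against NAc without BNST 3 (0.0617), NAc 2 (0.108), NAc 3 (0.101), dStr 1 (0.137) or dStr 2 (0.0986). A further probe set of Egr2 was lower in BNST than in dStr (adjusted p over probe sets = 0.00592) and did not pass between NAc and dStr (adjusted p = 0.0525). It read 100.1, 21.6 and 37.2 in BNST, and no fold is given against such dim values. This probe set was above the filter on low values on 1 BNST, 1 NAc and 3 dStr arrays. It would not have been kept without dStr, so the filter favoured its difference from dStr. NAc lay between the other regions for Egr3 and overlapped BNST for Egr1, Egr2 and Egr4.

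Fos, the AP-1 subunit most often used to map active neurons, showed no regional difference past the test. It read 590.5, 133 and 303 on BNST arrays 1 to 3, 392, 106 and 215 on the NAc arrays and 589.7, 103 and 219 on the dStr arrays. In every region array 1 was highest, array 3 intermediate and array 2 lowest, and the gap between arrays of a region (3.69- to 5.75-fold) exceeded any gap between region means. The difference was 0.44 for BNST minus NAc (95% interval -1.0 to 1.88), 0.26 for BNST minus dStr (-1.19 to 1.70) and -0.18 for NAc minus dStr (-1.63 to 1.26), with adjusted p of 0.882, 0.838 and 0.941. The intervals are wide and do not show that the regions had equal levels. Leaving out 1 array turned the sign of each of the 3 differences.

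Junb, an AP-1 partner of Fos, read 289.8, 63.2 and 119 in BNST, 181, 204 and 251 in NAc and 790.3, 276 and 497 in dStr. BNST 1 exceeded the lowest dStr array, so BNST and dStr overlapped, while every dStr array lay above every NAc array. Junb was 3.33-fold lower in BNST than in dStr (log2 difference -1.73, SE 0.46, adjusted p = 0.0311). That call ended without BNST 2 (adjusted p = 0.109), BNST 3 (0.11), dStr 1 (0.128) or dStr 3 (0.0954). NAc minus dStr was -1.13 (adjusted p = 0.32).

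Nr4a1, an orphan nuclear receptor induced by dopamine receptor blockade in striatum, read 752, 512 and 730.3 in BNST, 775, 675 and 650.2 in NAc and 1404, 1033 and 974 in dStr. All dStr arrays lay above all the others by a small margin. The difference was -0.76 for BNST minus dStr (SE 0.19, adjusted p = 0.0227), lost without BNST 2 (adjusted p = 0.0868) or dStr 1 (0.0959) and after quantile normalisation (-0.58, adjusted p = 0.0562), and -0.67 for NAc minus dStr (adjusted p = 0.127). Between BNST and NAc it was -0.089 (95% interval -0.51 to 0.33).

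**Figure D2:**
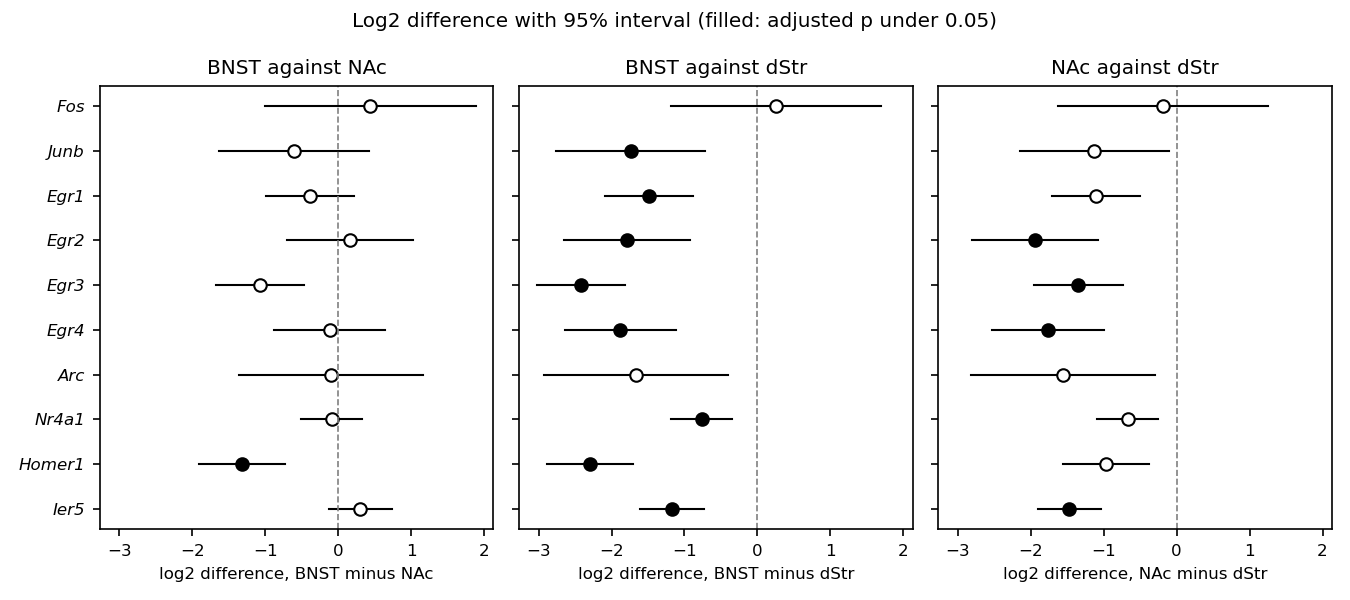
Log2 difference, on the log2(intensity + 16) scale, of each gene for BNST minus NAc, BNST minus dStr and NAc minus dStr, with its 95% interval from the limma fit over 9 arrays; filled symbols passed an adjusted p of 0.05. All points except Fos lie below 0 in the BNST minus dStr panel, and the intervals of Fos and Arc are the widest.

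Homer1 encodes a postsynaptic scaffold that links group I metabotropic glutamate receptors to Shank and to intracellular calcium stores, and its short, activity-induced form uncouples these links. Its brightest probe set read 545, 231 and 275 in BNST, 964, 886 and 692 in NAc and 1592, 1739 and 1667 in dStr. No array of 1 region overlapped another region, and the 3 dStr arrays differed by 1.09-fold at most. Homer1 was 4.90-fold lower in BNST than in dStr (adjusted p = 0.000377; at most 0.00336 with 1 array left out). It was 2.49-fold lower in BNST than in NAc (adjusted p = 0.0325). That call ended in 7 of the 9 fits with 1 array left out, with adjusted p between 0.0635 (without dStr 3) and 0.157 (without BNST 3), the exceptions being those without BNST 1 or NAc 3. Without BNST 1 and NAc 1 together it was -1.57 (adjusted p = 0.000404). NAc minus dStr was -0.97 (adjusted p = 0.115), which passed without BNST 1 (adjusted p = 0.00887).

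Homer1 had 6 probe sets on the array, of which 5 passed the filter on low values, and all 5 were lower in BNST than in dStr, 4 of them by 2.85- to 7.44-fold. The dimmest of the 5 read 35.3 on BNST 1 and the floor of 15 on the other BNST arrays, 66.5, 102 and 71.6 in NAc and 357, 249 and 347 in dStr. Its 3 regions did not overlap, and its fold depends on the floor and is not given. It passed in all 3 comparisons, with adjusted p over all probe sets of 0.0195 for BNST against NAc, 7.84e-05 for BNST against dStr and 0.00586 for NAc against dStr. This probe set was above the filter on low values on 0 BNST, 1 NAc and 3 dStr arrays. It would not have been kept without dStr, so the filter favoured its differences from dStr. A further probe set, at 86.2 ± 12.5 in BNST, 137 ± 9.0 in NAc and 276 ± 43.0 in dStr (SD, n = 3), was lower in NAc than in dStr (adjusted p = 0.0155), as was another, at 125 ± 38.2 in BNST, 259.9 ± 65.3 in NAc and 548 ± 19.4 in dStr (adjusted p = 0.0466). The filtered probe set read between 15 and 29.5 on all arrays. Which transcript forms of Homer1 the probe sets read was not given in the sources used here.

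**Figure D3:**
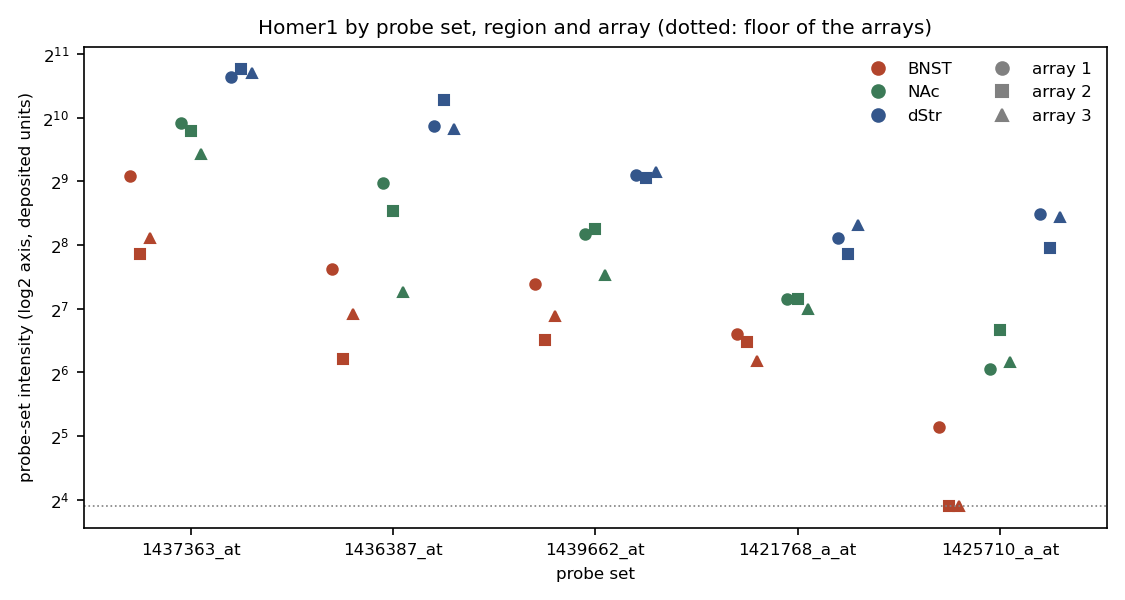
Intensity of the 5 Homer1 probe sets that passed the filter, on a log2 axis, for each BNST, NAc and dStr array; the dotted line is the common floor of 15. The mean of each probe set is lowest in BNST, intermediate in NAc and highest in dStr, and 2 BNST arrays of the dimmest probe set lie on the floor.

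Arc, a capsid-like protein that promotes endocytosis of AMPA receptors, read 477, 101 and 163 in BNST, 204, 152 and 329.6 in NAc and 1283, 313 and 754 in dStr. The lowest dStr array lay below the highest BNST and NAc arrays, so all 3 regions overlapped. BNST minus dStr was -1.66 (95% interval -2.93 to -0.40, adjusted p = 0.0797) and NAc minus dStr -1.56 (-2.83 to -0.30, adjusted p = 0.25), and neither passed. The difference between BNST and dStr passed without BNST 1 (-2.25, adjusted p = 0.0124) or dStr 2 (-2.20, adjusted p = 0.0362), and without BNST 1 and NAc 1 together (adjusted p = 0.00541).

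Ier5, an immediate early gene whose product modulates heat shock factor 1, read 306, 201 and 243 in BNST, 258, 175 and 168 in NAc and 636, 512 and 582 in dStr. BNST and NAc overlapped, and dStr lay well above both. Ier5 was 2.25-fold lower in BNST than in dStr (log2 difference -1.17, adjusted p = 0.00314) and 2.78-fold lower in NAc than in dStr (-1.47, adjusted p = 0.00382). Both calls held with each array left out, with highest adjusted p of 0.0196 and 0.0283. A further probe set, at 61.2 ± 6.45 in BNST, 65.2 ± 4.97 in NAc and 102 ± 8.50 in dStr (SD, n = 3), passed the filter on low values only through the dStr arrays, so that it had to differ. The remaining Ier5 probe set, at 21.2 to 41.7, did not pass the filter on low values.

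Of the 19 probe sets of the 10 genes, 17 passed that filter. In BNST 14 of the 17 were lower than in dStr (9.31% of all probe sets), 7 were lower in NAc than in dStr (0.959%; 2 or 3 without BNST 3, NAc 2, NAc 3 or any 1 of the dStr arrays) and 2 were lower in BNST than in NAc (1.16%; 0 without BNST 2, BNST 3 or NAc 2, 1 without NAc 1 or any 1 of the dStr arrays, 4 without BNST 1 and 5 without NAc 3). In these comparisons 0 were higher, against 4.33%, 0.724% and 0.642% of all probe sets. The 14 included both Egr2 probe sets and the Ier5 probe set that passed the filter only through dStr. The further Egr2 probe set and the dimmest of the 5 Homer1 probe sets, also among the 14, would not have passed the filter without dStr. That Homer1 probe set was among the 7 and the 2 as well. The exceptions between BNST and dStr were the probe sets of Fos and Arc and a dim one of Egr3, at 104 ± 11.5 in BNST, 114 ± 3.34 in NAc and 139 ± 13.2 in dStr (adjusted p = 0.0849 for BNST against dStr). The brighter and dimmer Egr3 probe sets differed in size, at 5.35- and 1.30-fold, but not in direction.

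The genes also varied together between arrays of the same region. BNST 1 was the highest and BNST 2 the lowest BNST array for all 10 genes, whereas over all genes tested BNST 1 was highest for 51.2% and BNST 2 lowest for 51.1%. In dStr, array 1 was highest for 8 of the 10 (30.5% of all genes), Egr3 and Homer1 being the others. NAc 1 was highest for 7 (31.0% of all genes). After the region means were taken out, Pearson's r between members over the 9 arrays ran from 0.15 for Egr3 and Arc to 0.96 for Junb and Arc, with a median of 0.71 over the 45 pairs. The points share arrays and their scaling, and r is given as a description. On the same arrays the summed striatal projection neuron markers were 11009 on BNST 1, 4667 on BNST 2 and 8386 on BNST 3, the same order as these genes. The sums were 27548 on NAc 1, 23169 on NAc 2 and 19228 on NAc 3, where NAc 3 was also the lowest array for 7 of the 10 genes (36.1% of all genes). In dStr they were 35113 on dStr 1, 38352 on dStr 2 and 38788 on dStr 3, so that dStr 1 was lowest, unlike in most of these genes.

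The size of that spread separated the members. The SD within regions on the log2 scale was 1.03 for Fos, 0.90 for Arc and 0.72 for Junb, at the 99.9th, 99.7th and 99.0th percentile of all genes tested, whose median was 0.21. It was 0.60 for Egr2, 0.52 for Egr4, 0.40 for Egr1 and Egr3 and 0.39 for Homer1. Ier5, at 0.26, and Nr4a1, at 0.25, lay at the 67.6th and 63.7th percentile. Fos, Arc and Junb, the genes with the widest spread, did not pass the F test over regions, which sets the differences between regions against this spread. For BNST minus dStr the difference was 0.26 in Fos, but -1.66 in Arc and -1.73 in Junb.

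**Figure D4:**
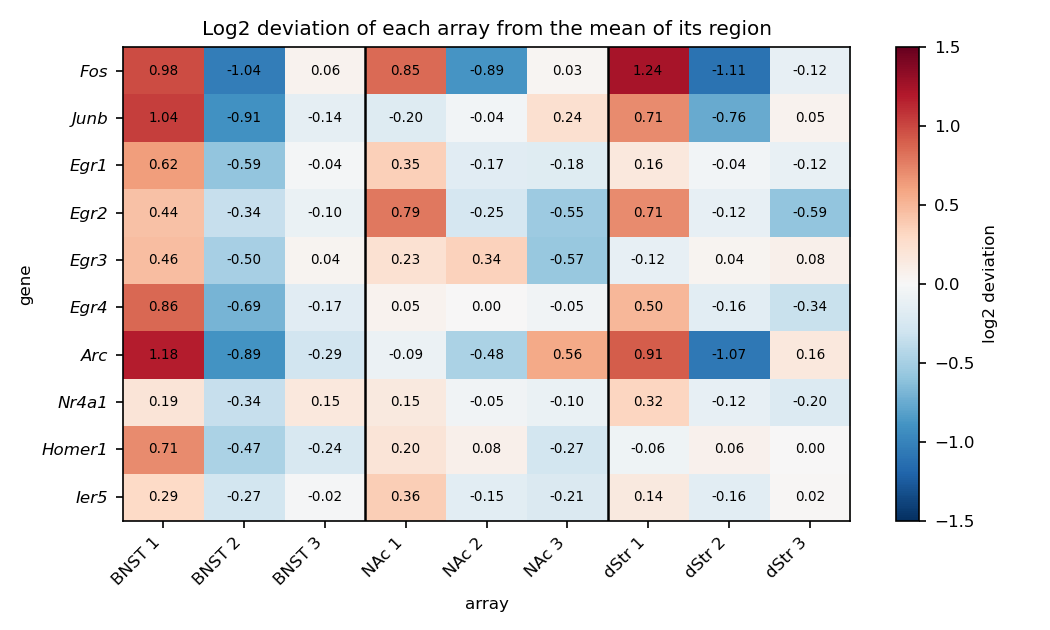
Log2 deviation of each array from the mean of its region, for the 10 genes (rows) on the 9 arrays (columns), with vertical lines between regions and the value printed in each cell. BNST 1 is above and BNST 2 below the regional mean in every row, and Fos repeats the order array 1, array 3, array 2 in all 3 regions.

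Of 17 other immediate early genes measured, chiefly transcription factors, 2 were lower and 1 higher in BNST than in dStr. These shares were near the 9.33% and 4.94% of all genes (1 passed without BNST 3 or dStr 3, 7 without BNST 1 and NAc 1 together). The median log2 difference of the 17 was -0.24 against -0.056 over all genes. Klf10, a Krüppel-like zinc finger gene, read 39.1, 22.6 and 21.0 in BNST, 48.2, 51.7 and 20.2 in NAc and 95.6, 119 and 111 in dStr, where all arrays were higher. It passed the filter on low values only through the dStr arrays, so that it had to differ, and no fold is given against the dim regions. Nr4a3, a nuclear receptor paralogous to Nr4a1, was 1.51-fold lower in BNST than in dStr (adjusted p = 0.0459; up to 0.184 and not passing without any 1 of the BNST or dStr arrays or NAc 2; 0.168 after quantile normalisation and 0.0619 after median centring), and Klf6 was 1.70-fold higher (adjusted p = 0.0254; 0.107 without BNST 3, 0.083 without dStr 2 and 0.103 without dStr 3). Between BNST and NAc 1 of the 17 passed, Ier3, 1.67-fold lower in BNST (adjusted p = 0.0497). With 1 array left out Ier3 passed in 1 of 9 fits, without NAc 3, and after quantile normalisation or median centring it did not pass (adjusted p = 0.069 and 0.0616), while 1 other gene of the list was then higher. Jun and Fosb, which code for AP-1 subunits, did not pass in any comparison, with BNST minus dStr at 0.10 and 0.17. Npas4, named here after its values were seen as a factor induced by neuronal calcium entry, read 156, 47.6 and 82.9 in BNST, 112, 81.3 and 166 in NAc and 355, 92.4 and 287 in dStr (BNST minus dStr -1.16, adjusted p = 0.132; 0.0485 without BNST 1, 0.0265 without dStr 2 and 0.0274 without BNST 1 and NAc 1 together), with array 1 highest and array 2 lowest in BNST and dStr.

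Among 24 activity-regulated effectors and feedback regulators 7 were lower and 1 higher in BNST than in dStr (8 to 10 in all when 1 array was left out), against 9.33% and 4.94% of all genes, with a median of -0.28 against -0.056 over all genes. Spry2, an inhibitor of receptor tyrosine kinase signalling, averaged 148 ± 39.1 in BNST, 207 ± 20.8 in NAc and 559 ± 56.6 in dStr, and was 3.55-fold lower in BNST than in dStr (adjusted p = 0.000165) and 2.58-fold lower in NAc than in dStr (adjusted p = 0.00382). Rgs4, a regulator of G-protein signalling, was 3.43-fold lower, the Ras activator gene Rasgrp1 3.20-fold lower and the phosphatase gene Dusp14 2.79-fold lower in BNST than in dStr (adjusted p = 0.00102, 0.0014 and 0.00834). Nrn1, which encodes the neurite-promoting protein neuritin, was the exception, 3.03-fold higher in BNST than in dStr (adjusted p = 0.00182) and 3.13-fold higher in BNST than in NAc (adjusted p = 0.00779). Rasgrp1 was 2.41-fold lower in BNST than in NAc (adjusted p = 0.0263; up to 0.104 and not passing without BNST 3, NAc 1, NAc 2 or any 1 of the dStr arrays). Dusp1, a phosphatase gene that dampens MAP kinases, named after its values were seen, read 496, 158 and 245 in BNST, 419, 344 and 366 in NAc and 858, 408 and 585 in dStr, with array 1 highest and array 2 lowest in each region, and did not pass (BNST minus dStr -1.09, adjusted p = 0.0714), although it did without BNST 1 (adjusted p = 0.00553).

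Upstream of these genes, 11 of 25 kinases, calcium channels and transcription factors were lower in BNST than in dStr and 0 higher (6 without BNST 2, BNST 3 or dStr 3, 7 without dStr 1 and 17 without BNST 1 and NAc 1 together), against 9.33% and 4.94% of all genes, with a median of -0.70 against -0.056 over all genes. Camk4, a nuclear calcium kinase that phosphorylates CREB, averaged 513 ± 161 in BNST, 1555 ± 678 in NAc and 2373 ± 297 in dStr and was 4.65-fold lower in BNST than in dStr (adjusted p = 0.00115). Its activating kinase gene Camkk2 was 4.53-fold lower (adjusted p = 0.000362), and the kinase genes Rps6ka3 and Rps6ka5, whose products phosphorylate CREB, were 3.87-fold and 3.51-fold lower (adjusted p = 0.0011 and 0.00182). Between BNST and NAc Camk4 and Rps6ka3 were lower in BNST, by 2.88- and 2.49-fold (adjusted p = 0.0333 and 0.0354). With 1 array left out both calls held in 2 of 9 fits, without BNST 1 and without NAc 3, with highest adjusted p of 0.128 and 0.161. These 2 calls of the list became 9 without BNST 1, 5 without NAc 3, 15 without BNST 1 and NAc 1 together, 1 without NAc 1 and 0 without BNST 2, BNST 3, NAc 2 or any 1 of the dStr arrays. Between NAc and dStr limma called 0 of the 25, 5 of which had an unadjusted p under 0.05, and 1 or 2 passed without BNST 1, BNST 2 or NAc 1.

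Homer partners and EGR co-repressors moved in both directions. Homer2, a constitutive paralogue of Homer1, ran opposite to it, at 530.4, 456 and 600.1 in BNST, 170.5, 209 and 171 in NAc and 155, 163 and 178 in dStr. BNST lay above all other arrays, and NAc and dStr overlapped. Homer2 was 2.73-fold higher in BNST than in NAc (adjusted p = 0.00111) and 2.99-fold higher than in dStr (adjusted p = 0.000124), and both calls held with each array left out. Of the 15 genes measured, 4 were lower and 1 higher in BNST than in dStr (5 or 6 in all when 1 array was left out), against 9.33% and 4.94% of all genes, with a median of -0.026 against -0.056 over all genes. Dlgap2, a postsynaptic density scaffold, was lower in BNST than in dStr (adjusted p = 0.0015). It read 94.4, 30.7 and 27.1 in BNST and 409, 288 and 367 in dStr, and no fold is given against such dim values. Shank3, which binds Homer proteins, was 2.35-fold lower, the channel gene Trpc1 2.22-fold lower and Nab2, a co-repressor of EGR proteins, 1.89-fold lower (adjusted p = 0.00127, 0.00915 and 0.00198).

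Genes other than the 10 members were ranked by likeness over the 9 arrays, with those lacking an established name skipped. With Egr3, the highest Pearson's r was that of Spock3, a testican proteoglycan gene (0.996), which averaged 314 ± 129 in BNST, 714 ± 175 in NAc and 1741 ± 101 in dStr (SD, n = 3). Tgfa followed at 0.992, then Diras2, Hrk and Neto2 at 0.991 each. With the mean of the standardised log2 values of the 10 genes, Extl3 (0.974), Itih2 (0.970), Pcdh17 (0.953), Pxdn (0.951) and Lin54 (0.948) came highest. Extl3, a glycosyltransferase gene, averaged 357 ± 34.8 in BNST, 389 ± 34.6 in NAc and 482 ± 54.0 in dStr. The 5 genes most like Egr3 and the 5 most like the mean had none in common, and the correlations, the highest among the genes ranked, are a description.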

How the data were processed

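RNA of 9 punches, 10 ng of total RNA each per the labels, was labelled with biotin by a 2-cycle method and read on Affymetrix Mouse430_2 arrays. The authors deposited linear intensity values per probe set, scaled to similar medians and floored at 15, and the summarisation method is not given in the sources used here. Precision is limited by the number of arrays.

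Values were taken as log2(intensity + 16), and folds are on that scale, which understates changes of dim genes. Probe sets above the 40th percentile of the array on 3 or more of 9 arrays were kept (29293). The brightest kept probe set, by its mean, stood for each gene, and 932 probe sets with several symbols and 9160 with none were left out. Regions, 3 arrays each, were compared with limma 3.58.1 in R 4.3.3 in 1 model over all arrays (6 residual degrees of freedom), with Benjamini-Hochberg adjustment over the 14208 genes, or over all kept probe sets where stated, 2-sided, at 0.05. The script was tested on simulated data.

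The members, the 4 related lists and the 8 marker lists were chosen with earlier results of these data known. Named genes outside the members were up to 4 passing genes per list, comparison and direction, and the 5 most alike in pattern; Jun, Fosb, Npas4 and Dusp1 were added after their values were seen. Alternatives were 2 other scalings, other filters, pseudocounts, prior and probe-set rules, a replicate block, the pair of regions alone, a log2 difference of at least 1 and leaving out each array. Leaving out BNST 1 and NAc 1 together was added after the data were seen. Promoter windows came from RefSeq (GRCm38.p6).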

Additional observations from a re-analysis of the deposited data

How the results depend on the processing

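Over 21 alternatives each, the 30 differences of single genes kept direction and call in 554 cases, lost the call in 42, gained it in 18 and changed sign in 16, all 16 among differences that had not passed. Without a filter, which raises the number of genes tested, 0 members passed between BNST and NAc and 1 between NAc and dStr, and 0 and 3 of the probe sets. With the arrays of the pair alone 0 members and 0 probe sets passed between BNST and NAc. Without BNST 1 and NAc 1 together 2 members and 6 probe sets passed between BNST and NAc, and 11 probe sets between NAc and dStr. The cause of these shifts was not tested.

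With 1 array left out, members passing ranged from 0 to 2 between BNST and NAc, 5 to 9 between BNST and dStr, 1 to 6 between NAc and dStr and 3 to 9 in the F test, and probe sets from 0 to 5, 10 to 15 and 2 to 10. For differences that changed sign the range for BNST minus NAc was -0.050 to 0.96 in Fos, -0.69 to 0.35 in Arc, -0.11 to 0.56 in Egr2, -0.55 to 0.23 in Egr4 and -0.19 to 0.084 in Nr4a1. In Fos it was -0.30 to 0.88 for BNST minus dStr and -0.74 to 0.44 for NAc minus dStr. Without BNST 1 and NAc 1 Fos was -0.23 for BNST minus dStr. Between BNST and NAc, Nr4a1 was 0.084 after quantile normalisation and Egr2 -0.12 with the mean of its probe sets. With 2 arrays left in a region, their spread is pooled with that of the other regions.

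Arrays of different regions share replicate numbers, but their deviations from the region means did not pair them: r ran from -0.51 to 0.26 for equal numbers and -0.34 to 0.42 for unequal ones, and 0 of 9 arrays correlated best with its own number. With a replicate block 1, 9 and 4 members passed in the comparisons of BNST with NAc, BNST with dStr and NAc with dStr, 8 passed the F test, and 0, 15 and 5 probe sets passed. The block gained Arc between BNST and dStr (adjusted p = 0.0257) and Egr1 between NAc and dStr (0.0431), and lost Egr3 between NAc and dStr (0.0844).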

Other observations

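Fos was singled out here after its values were seen. Of the sum of squares of its log2 values over the 9 arrays, region held 4.44% and replicate number 93.7%, against medians over all genes of 34.3% and 11.8%. In a limma fit with region and replicate number, the term for the number had its lowest p of all 14208 genes in Fos (adjusted p = 0.0645, higher on array 1 than on array 2 in 3 of 3 regions). By that fit 0 genes passed after adjustment and 205 (1.44%) had an unadjusted p under 0.05, 7 of the 10 immediate early genes among them. Egr2 ranked 7 and Arc 24 by that p. The order of arrays was the same in all regions for 1 of the 10 genes, Fos, and for 1.68% of all genes. Replicate number held 33.7% in Arc, 23.0% in Junb and 21.1% in Egr2, but 1.80% in Egr3 and 4.05% in Homer1. Whether equal numbers mark a shared animal, day or dissection is not given in the sources used here.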
